A study of Mus musculus with 6 samples.

Results

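The 31 genes described here encode parts of the primary cilium: the intraflagellar transport (IFT) trains, their motors, the BBSome, the transition zone and the ciliary GTPase Arl13b. They were listed by complex, and all 31 were found among the 55401 gene IDs of the count tables and passed the filter on low counts. RNA was measured in primary mouse cholangiocytes, the epithelial cells lining the bile ducts, from mice of the genotypes WT (wild type) and PLD (a model of polycystic liver disease), both taken 3 months after tamoxifen, with 3 libraries per group. Cells were released from the digested biliary tree and taken on magnetic beads with an antibody to EpCAM. The labels do not name the allele or agent that causes the disease, the promoter that drives the tamoxifen response, or the strain, sex and age of the mice. Whether each library is 1 animal is likewise unstated, and p-values therefore reflect the spread among these samples only, which may be technical.

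A primary cilium is a single antenna built on a centriole. IFT-B trains pulled by kinesin-2 carry tubulin and other cargo outward, IFT-A and cytoplasmic dynein-2 bring trains back, and the BBSome moves membrane proteins along them, while the transition zone at the base controls what enters. Cholangiocytes carry such cilia on the side that faces bile, where polycystin-1 and polycystin-2 reside, and cilium genes mutated in people can give malformed bile ducts and liver cysts. Endothelial cells and fibroblasts can be ciliated as well.

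The cilium genes moved little and in both directions. With an adjusted p under 0.05 in edgeR's quasi-likelihood test (Benjamini-Hochberg, over all genes) as the threshold for passing, 6 of the 31 were higher in PLD (Ift46, Bbs4, Kif3a, Wdr35, Ift52 and Bbs2) and 6 were lower (Bbs7, Tulp3, Cc2d2a, Arl13b, Tmem67 and Ift172). These 12 are 38.7% of the genes, whereas 55.4% of all 15334 genes tested passed, 27.0% as higher and 28.4% as lower. The median log2 fold change of the cilium genes was -0.01, against 0.01 over all genes tested, and their values ran from -1.18 to 0.87. Only Bbs7 and Tulp3 passed with a change of at least 2-fold, both lower, while 27.3% of all genes did so, 9.21% as higher and 18.1% as lower. All PLD libraries lay above all WT libraries for 8 cilium genes and below them for 6, and the groups overlapped for 17. The background of that count is 66.2% of all genes without overlap, 33.0% above and 33.2% below.

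**Figure D1:**
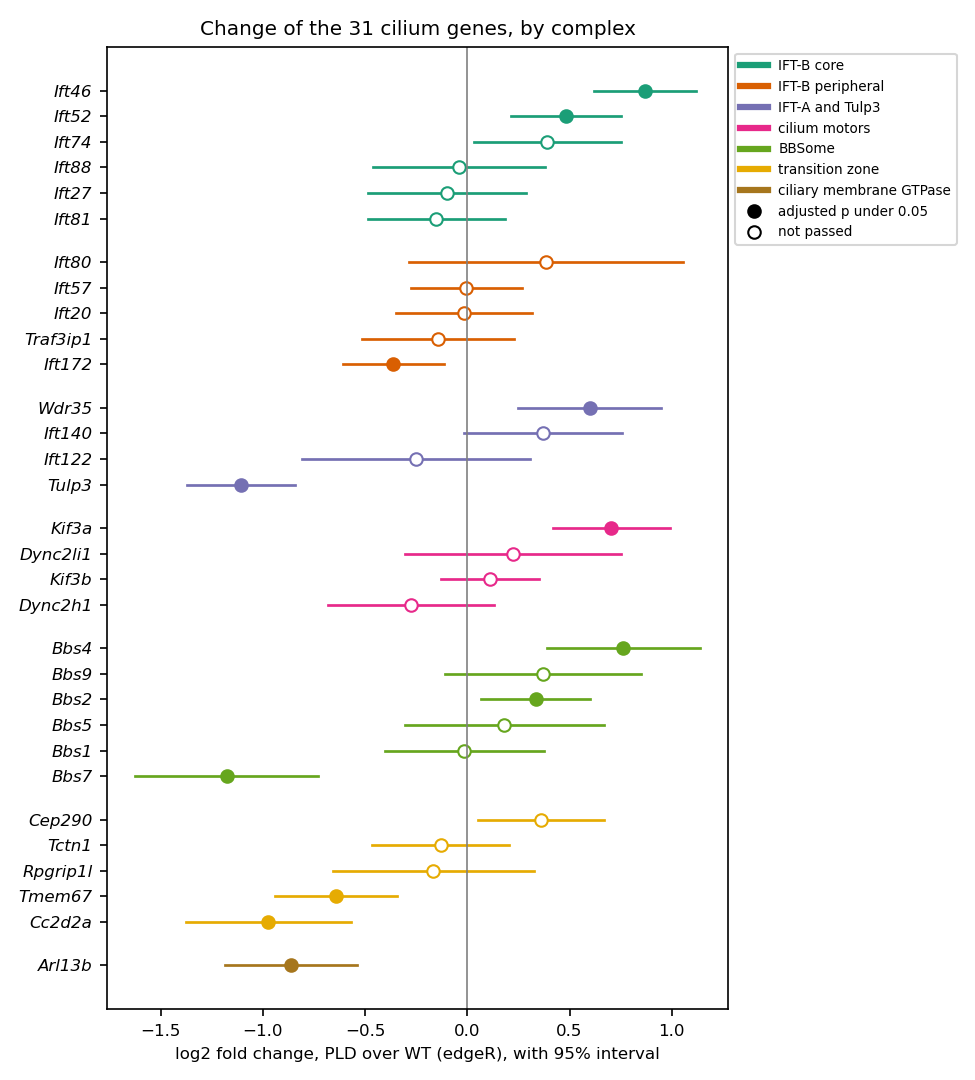
Log2 fold change of PLD over WT for each of the 31 cilium genes (x axis), grouped by complex on the y axis, with points for the edgeR estimate and lines for its 95% interval. Filled points passed the threshold. They lie on both sides of 0, from Bbs7 at -1.18 to Ift46 at 0.87, and most complexes hold members on either side.

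The summed level of the 31 genes was 719 ± 78.3 CPM (reads scaled to a common library total with TMM factors, mean ± SD, n = 3) in PLD and 724 ± 14.9 CPM in WT. The 3 WT libraries held 718, 713 and 741 CPM and the 3 PLD libraries 629, 764 and 765, so the groups overlapped and PLD replicate 1 was lowest. By complex, the IFT-B core summed to 129 ± 10.5 CPM in PLD and 100.8 ± 1.61 in WT, and the BBSome to 91.2 ± 6.72 and 75.4 ± 1.29. The transition zone sum went the other way, with 71.4 ± 7.04 CPM in PLD and 90.4 ± 5.93 in WT. Single genes weigh heavily in such sums. Ift46 of the IFT-B core had a mean of 44.3 CPM in PLD and 24.3 in WT, and Cc2d2a of the transition zone 15.9 and 31.1. Cep290, also of the transition zone, lay against its sum, at 20.7 and 16.1. The sums of the groups did not overlap for any of these 3 complexes. The sums did overlap for the motors (153 ± 17.3 CPM in PLD, 131 ± 4.48 in WT), IFT-A with Tulp3 (116 ± 22.7 and 122 ± 0.891) and peripheral IFT-B (111 ± 17.2 and 116 ± 2.93). Among single genes, 66.2% of all tested had no overlap.

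Depth was close to equal, at 15768561 to 16710548 counted reads per library, so 3 reads correspond to between 0.180 and 0.190 CPM. Levels of cell type markers differed between the groups. Their counts stand against 27.0% of all genes higher and 28.4% lower. Of 20 cholangiocyte markers 15 were higher and 2 lower in PLD, and their summed level was 10271 to 14864 CPM in WT and 35466 to 48513 in PLD. All 16 endothelial markers were lower (summed level 8359 to 10834 CPM in WT, 611 to 1091 in PLD), as were 13 of 17 fibroblast, stellate and smooth muscle markers, with 1 higher (8668 to 13932 and 1878 to 4769 CPM). Of 12 hepatocyte markers 3 were higher and 5 lower, and their summed level was 1573 to 2489 CPM in WT and 2980 to 6753 in PLD. Alb was the largest part in every library, though not most of the sum in PLD replicate 1 (1303 of 2980 CPM). Of 10 macrophage markers 3 were higher and 1 lower, with summed levels of 719 to 858 and 1289 to 1769 CPM. Of 7 mesothelial markers 3 were higher and 3 lower, and the sum went from 64.8 to 69.6 CPM in WT to 902 to 1236 in PLD, most of it Msln. Lymphocyte markers were low, with 4 of 10 tested, of which 1 was higher and 1 lower, and those 4 summed to at most 6.84 CPM in any library. Krt19 and Epcam, which mark the cell type, were counted in every library, at 292 to 551 and 254 to 417 CPM in WT and 3554 to 4238 and 919 to 1363 CPM in PLD. The 2 cholangiocyte markers that passed as lower were Cftr and the secretin receptor gene Sctr. Cftr had 47.5 to 121 CPM in WT and 10.7 to 22.7 in PLD, and Sctr 2.10 to 2.36 and 0 to 0.240. Of the tested markers in these 7 lists, Sctr and the mesothelial gene Muc16 were at 0 in PLD replicate 1, and no other was at 0 in any library. In such bulk samples, fewer cells of a type and less RNA per cell cannot be told apart. The part of these shifts in the cilium gene changes was not tested.

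**Figure D2:**
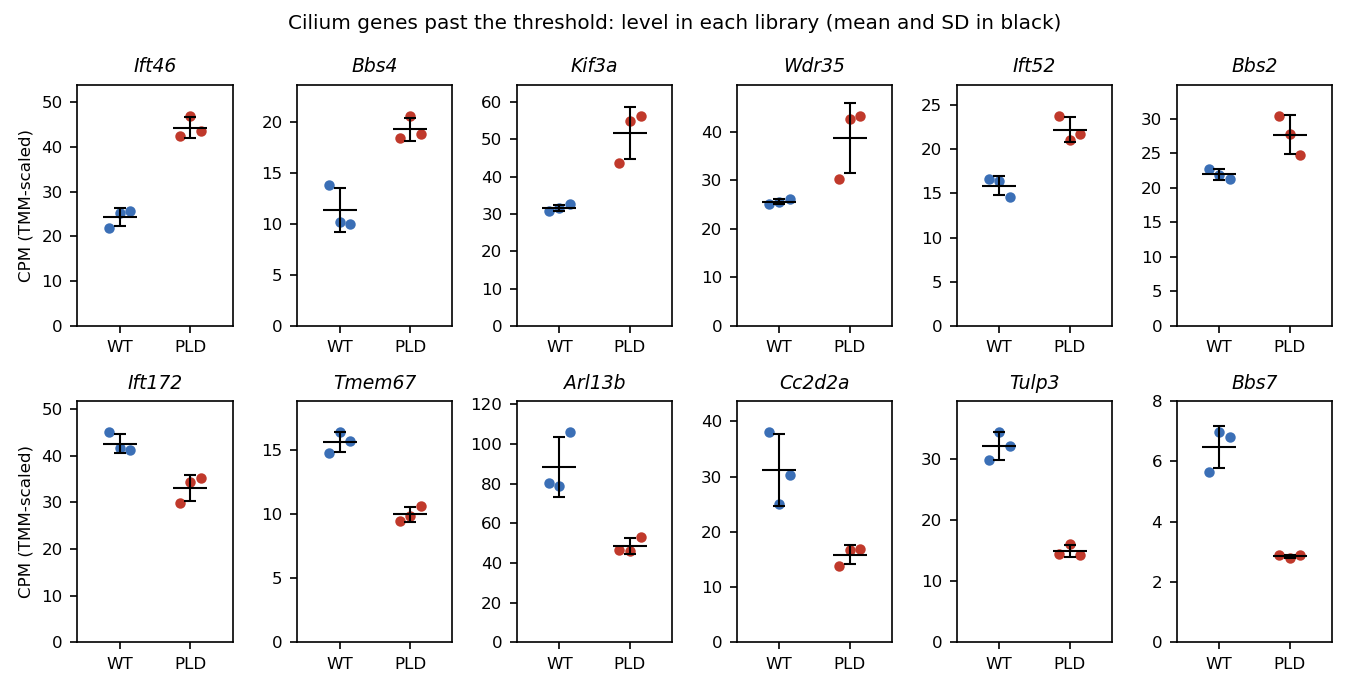
TMM-scaled CPM (y axis, from 0) of the 12 cilium genes that passed, in the 3 WT libraries (blue) and the 3 PLD libraries (red), with replicates 1 to 3 from left to right and the mean and SD in black. The groups do not overlap in any panel, and the upper row holds the 6 higher genes and the lower row the 6 lower ones.

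In the IFT-B core, which forms the backbone of the train, 2 of 6 genes were higher and none passed as lower. Ift46 (ENSMUSG00000002031.13, mm10 chromosome 9, 44767908 to 44793447, plus strand), a core subunit that binds Ift52 and Ift88, had 42.5, 46.9 and 43.5 CPM in the PLD libraries and 21.9, 25.3 and 25.6 CPM in the WT libraries. Every PLD library was well above every WT library. The rise of 0.87 ± 0.11 (log2 fold change ± standard error, SE), or 1.83-fold, was the largest among the 31 genes (edgeR adjusted p = 5.42e-04).

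Ift52 (ENSMUSG00000017858.12, chromosome 2, 163017354 to 163046141, plus strand), which holds the core together, had 23.8, 21.0 and 21.7 CPM in PLD and 16.6, 16.4 and 14.6 CPM in WT. The groups did not overlap, and the log2 fold change was 0.48 ± 0.12 SE (edgeR adjusted p = 0.00963). Ift88, the core subunit whose loss gives short or absent cilia and cystic kidneys in mice, was near the same level in both groups, with 13.2, 19.9 and 19.1 CPM in PLD and 20.0005, 16.2 and 17.5 in WT. Its log2 fold change was -0.04, with a 95% interval of -0.46 to 0.38. Ift46 therefore had 262 ± 52.7 reads per 100 Ift88 reads of the same library in PLD and 137 ± 24.4 in WT, without overlap. Such a ratio needs no scaling between libraries, but it reuses the counts above and is no separate evidence.

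Ift74 and Ift81 pair with each other to bind tubulin. Ift74 had 15.6, 22.2 and 18.8 CPM in PLD and 13.6, 14.6 and 15.01 in WT, which do not overlap, and its log2 fold change of 0.39 missed the threshold (edgeR adjusted p = 0.0623). It passed when PLD replicate 1 was left out, with 0.52. Ift81 had a log2 fold change of -0.15 (interval -0.49 to 0.18), and the small GTPase gene Ift27 of -0.10 (interval -0.49 to 0.29). Per 100 Ift81 reads there were 120 ± 15.7 Ift74 reads in PLD and 82.4 ± 8.74 in WT, without overlap between the groups.

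The peripheral IFT-B genes, whose proteins join the core to the motor and membrane, gave 1 fall and no rise among 5. Ift172 (ENSMUSG00000038564.11, chromosome 5, 31253277 to 31291116, minus strand), which acts where trains turn around at the tip, had 30.0, 34.3 and 35.1 CPM in PLD and 45.0, 41.6 and 41.3 CPM in WT. All PLD libraries were below all WT libraries, by a log2 fold change of -0.36 ± 0.11 SE (edgeR adjusted p = 0.0215). The call was lost without PLD replicate 2, WT replicate 1 or WT replicate 3, without the filter on low counts, and after removal of a gene length trend, where the value was -0.24.

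Ift20, which also sits at the Golgi, and Ift57 were the closest to 0 of these 5 genes. Ift20 had 21.0, 27.6 and 23.0 CPM in PLD and 21.7, 27.0 and 23.8 in WT, a log2 fold change of -0.02 with an interval of -0.35 to 0.32. For Ift57 the change was -0.01, with the narrower interval of -0.28 to 0.26. Traf3ip1, which encodes IFT54 and links Ift20 to microtubules, had -0.14 (interval -0.52 to 0.23). Ift80, another peripheral subunit, varied widely in PLD, at 14.3 CPM in replicate 1, 34.1 in replicate 2 and 30.8 in replicate 3, with WT between 19.6 and 21.2. The change was 0.39 on the log2 scale using all libraries (edgeR adjusted p = 0.286) and 0.69, past the threshold, without PLD replicate 1.

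Among the IFT-A genes and Tulp3, 1 of 4 was higher and 1 lower. Wdr35 (ENSMUSG00000066643.12, chromosome 12, 8973892 to 9028847, plus strand), which encodes IFT121, had 30.4, 42.6 and 43.3 CPM in PLD and 25.2, 25.6 and 26.1 in WT. The WT libraries were tight, and PLD replicate 1 lay nearest to them without reaching them. The log2 fold change was 0.60 ± 0.15 SE (edgeR adjusted p = 0.0114). Tulp3 (ENSMUSG00000001521.12, chromosome 6, 128321161 to 128355851, minus strand), the adaptor through which IFT-A loads receptors, polycystins and Arl13b into cilia, fell by contrast. It had 14.4, 16.04 and 14.3 CPM in PLD and 29.9, 34.3 and 32.2 in WT, 2.15-fold lower in PLD (log2 fold change -1.11 ± 0.11 SE, edgeR adjusted p = 2.33e-04). There were 39.3 ± 7.34 Tulp3 reads per 100 Wdr35 reads in PLD and 125 ± 7.80 in WT.

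The other IFT-A genes did not pass. Ift140, mutated in skeletal and kidney ciliopathies and in cystic kidney disease, had 20.9, 24.8 and 23.6 CPM in PLD and 22.2, 15.9 and 15.6 in WT, so that WT replicate 1 lay among the PLD libraries. The change of Ift140 was 0.37 on the log2 scale (edgeR adjusted p = 0.0945) and passed without that library, at 0.56. Ift122 had 45.1 and 48.3 CPM in PLD replicates 2 and 3 and 44.0 to 48.6 in WT, but 24.0 in PLD replicate 1. The log2 fold change of Ift122 was -0.25 with all libraries and 0.01 without that library.

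Of the motor genes, Kif3a alone passed. Kif3a (ENSMUSG00000018395.19, chromosome 11, 53567379 to 53601967, plus strand), a motor subunit of kinesin-2, had 43.6, 55.0 and 56.3 CPM in PLD and 30.9, 31.6 and 32.6 in WT. All PLD libraries were higher, by a log2 fold change of 0.70 ± 0.12 SE (edgeR adjusted p = 0.00232). Its partner Kif3b, with which it forms the motor pair, had 51.4, 42.6 and 48.6 CPM in PLD and 44.0, 43.5 and 44.7 in WT, a log2 fold change of 0.11 with an interval of -0.13 to 0.35. Kif3a reads per 100 Kif3b reads thus numbered 84.9, 129 and 116 in the PLD libraries and 70.2, 72.7 and 72.8 in the WT libraries, which do not overlap.

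Dynein-2 returns trains to the cell body. Dync2h1, its heavy chain, had 21.5, 26.3 and 34.0 CPM in PLD and 33.5, 30.0 and 35.7 in WT. The groups overlapped, and Dync2h1 did not pass at -0.28 on the log2 scale (edgeR adjusted p = 0.211). It passed without PLD replicate 3, at -0.45, and turned to 0.12 after removal of the gene length trend. The light intermediate chain gene Dync2li1 had 17.1, 33.3 and 28.3 CPM in PLD and 21.1 to 23.4 CPM in WT, so PLD lay on both sides of WT. Its log2 fold change was 0.22 with all libraries, 0.46 and past the threshold without PLD replicate 1, and -0.02 after removal of the gene length trend.

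The BBSome held both the largest fall and one of the larger rises. Bbs7 (ENSMUSG00000037325.10, chromosome 3, 36573142 to 36613477, minus strand), a subunit of the first subcomplex to form in BBSome assembly, had 2.89, 2.81 and 2.88 CPM in PLD and 5.66, 6.96 and 6.80 in WT. These rest on 42, 46 and 48 reads in PLD and 96, 118 and 110 in WT, and the groups were far apart. The fall was 2.26-fold (log2 fold change -1.18 ± 0.19 SE, edgeR adjusted p = 0.00177). Bbs4 (ENSMUSG00000025235.8, chromosome 9, 59321990 to 59353508, minus strand), which joins the complex late, had 18.4, 20.6 and 18.8 CPM in PLD and 13.8, 10.2 and 10.0 in WT. All PLD libraries were higher, though 3.21% of its exon length overlaps Adpgk on the other strand (log2 fold change 0.76 ± 0.16 SE, edgeR adjusted p = 0.00546). Bbs4 reads per 100 Bbs7 reads, which restate this rise and fall, were 673 ± 51.9 in PLD and 179 ± 55.9 in WT.

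Bbs2 (ENSMUSG00000031755.6, chromosome 8, 94067954 to 94098928, minus strand), which pairs with Bbs7, was 30.4, 27.8 and 24.8 CPM in PLD and 22.8, 21.9 and 21.2 CPM in WT. The log2 fold change was 0.33 ± 0.11 SE and close to the threshold (edgeR adjusted p = 0.0387). The Bbs2 call was lost in 8 of 14 alternatives, among them each omission of a single library except PLD replicate 3. Bbs9 (log2 fold change 0.37, interval -0.11 to 0.85), Bbs5 (0.18, interval -0.31 to 0.67) and Bbs1 (-0.01, interval -0.40 to 0.37) did not pass. Bbs9 passed without PLD replicate 1, at 0.58. Per 100 Bbs7 reads there were 967 ± 97.1 Bbs2 reads in PLD and 343 ± 51.4 in WT.

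At the transition zone 2 of 5 genes were lower and none passed as higher. Cc2d2a (ENSMUSG00000039765.15, chromosome 5, 43662346 to 43740972, plus strand), a scaffold of the membrane module of this gate, had 13.8, 16.7 and 17.0 CPM in PLD and 38.0, 25.1 and 30.3 in WT. The WT libraries were spread, yet each was above every PLD library. The fall was 1.96-fold (log2 fold change -0.97 ± 0.17 SE, edgeR adjusted p = 0.00265). Tmem67 (ENSMUSG00000049488.14, chromosome 4, 12039355 to 12090020, minus strand), which encodes the membrane receptor meckelin and is mutated in ciliopathies with liver fibrosis, had 9.51, 9.88 and 10.6 CPM in PLD and 14.8, 16.4 and 15.7 in WT. Both groups were tight and did not overlap, and 3.73% of its exon length overlaps Rbm12b2 on the other strand (log2 fold change -0.64 ± 0.13 SE, edgeR adjusted p = 0.00430).

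Cep290, which links the microtubules to the membrane at this site, lay just outside the threshold. It had 20.8, 19.5 and 21.7 CPM in PLD and 15.3, 14.6 and 18.5 in WT, without overlap, and differed by 0.36 on the log2 scale (edgeR adjusted p = 0.0506). It passed with limma-voom, with upper-quartile factors, without WT replicate 3 and after removal of the gene length trend, where it reached 0.64. Rpgrip1l (-0.17, interval -0.66 to 0.32) and Tctn1 (-0.13, interval -0.47 to 0.20) did not pass and turned to 0.19 and 0.04 with the length trend removed. Relative to Cep290 in the same library, Cc2d2a had 76.9 ± 9.73 reads per 100 in PLD and 195 ± 46.1 in WT, and Tmem67 48.5 ± 2.57 and 98.0 ± 13.9.

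Arl13b (ENSMUSG00000022911.11, chromosome 16, 62793685 to 62847040, minus strand), a GTPase of the ciliary membrane that activates Arl3 and is mutated in Joubert syndrome, fell. It had 46.5, 45.9 and 53.3 CPM in PLD and 80.3, 79.0 and 106 in WT. Even the lowest WT library was well above the highest PLD library. The log2 fold change was -0.86 ± 0.14 SE, or 1.82-fold lower (edgeR adjusted p = 0.00166). Read against Kif3a, which rose, Arl13b had 94.96 ± 11.6 reads per 100 in PLD and 278 ± 40.6 in WT. The pairs in these read ratios were chosen after the values were seen, and they are given without a test. Every ratio reuses the counts of its own genes, so it restates their changes and adds no separate support for them. How often other pairs of genes show no overlap was not computed. Of 14 pairs computed, the groups overlapped in 2, with 301 ± 43.9 Ift20 reads per 100 Traf3ip1 reads in PLD and 275 ± 30.8 in WT, and 63.6 ± 20.5 Ift140 reads per 100 Ift122 reads in PLD and 38.7 ± 10.3 in WT.

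Of the 12 calls, 10 were also made in all 14 alternatives, 5 in each direction; Ift172 and Bbs2 were the exceptions. No called gene changed sign in any of these alternatives.

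Levels can be compared between genes only per length. Here CPM was divided by the summed exon length of the gene model, which understates genes with long exons that are rarely used. On this scale Arl13b led in WT with 17.4 ± 2.96 CPM per kb, next to Ift20 with 15.8 ± 1.77 and Dync2li1 with 12.0 ± 0.671. Arl13b and Ift20 do not differ beyond their spread. Kif3a (8.84 ± 0.230), Kif3b (7.82 ± 0.113) and Ift57 (6.93 ± 0.382) followed, and Bbs7 (1.201 ± 0.131) and Rpgrip1l (0.814 ± 0.145) were lowest. In PLD the leaders were Ift20 (15.6 ± 2.21), Kif3a (14.4 ± 1.95) and Dync2li1 (14.0 ± 4.44), which lie within each other's spread, ahead of Arl13b (9.55 ± 0.809). Bbs7 was lowest in PLD, at 0.531 ± 0.00880 CPM per kb, below Rpgrip1l at 0.725 ± 0.154. The other members of the BBSome lay between 1.67 and 8.35 CPM per kb in that group.

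**Figure D3:**
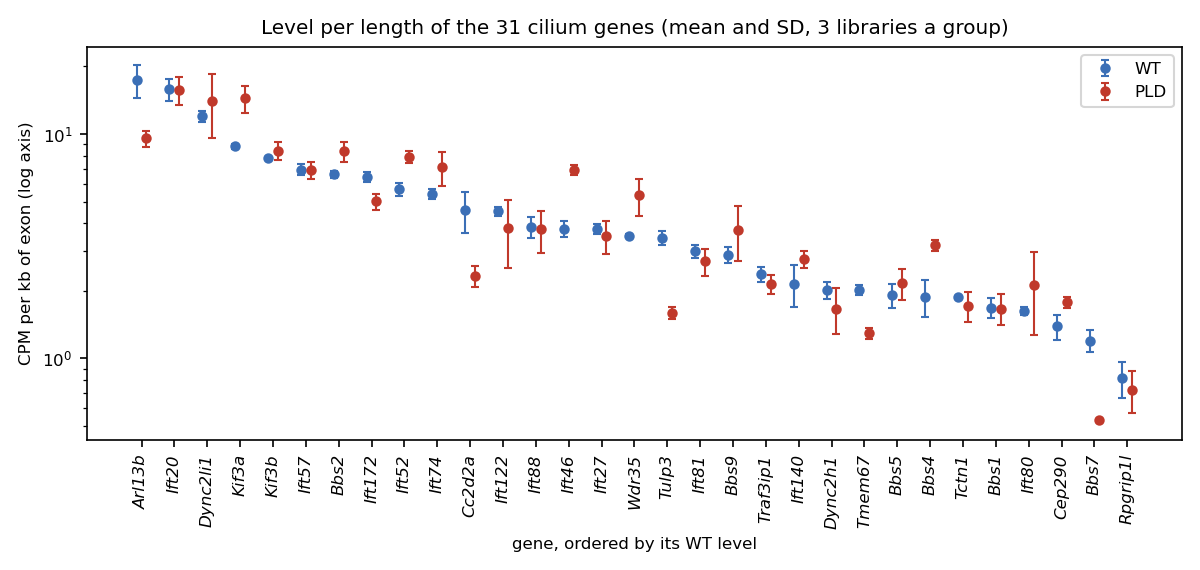
Mean CPM per kb of exon (log y axis) with SD over 3 libraries in WT (blue) and PLD (red), for the 31 cilium genes ordered by their WT level on the x axis. Arl13b is first in WT at 17.4 and falls to 9.55 in PLD, and Bbs7 falls from 1.201 to 0.531.

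PLD replicate 1 stood apart from the other PLD libraries for many cilium genes. It was the lowest of the 3 PLD libraries for 22 of 31 (71.0%), against 41.5% of all genes tested, and lay below all 5 other libraries for 16 (51.6%), against 28.1% of all genes. The median cilium gene had 84.2% of its mean level in PLD replicates 2 and 3 there, where the median of all genes was 99.5%. Ift80 (44.1%), Ift122 (51.5%), Dync2li1 (55.5%), Bbs9 (60.3%) and Ift88 (67.5%) were lowest in this respect, while Bbs5 (130%), Bbs2 (115%), Kif3b (113%) and Ift52 (111%) were above the other PLD libraries. In that library the cholangiocyte markers summed to 48513 CPM, where PLD replicates 2 and 3 had 38603 and 35466, the fibroblast list to 1878 against 3854 and 4769, and the endothelial list to 611 against 887 and 1091. The part of these values in the low cilium levels was not tested. Without PLD replicate 1, 9 cilium genes were higher and 6 lower, against 26.4% and 28.8% (55.3% in all) of all genes, as Ift74, Ift80, Dync2li1 and Bbs9 passed and Bbs2 did not.

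**Figure D4:**
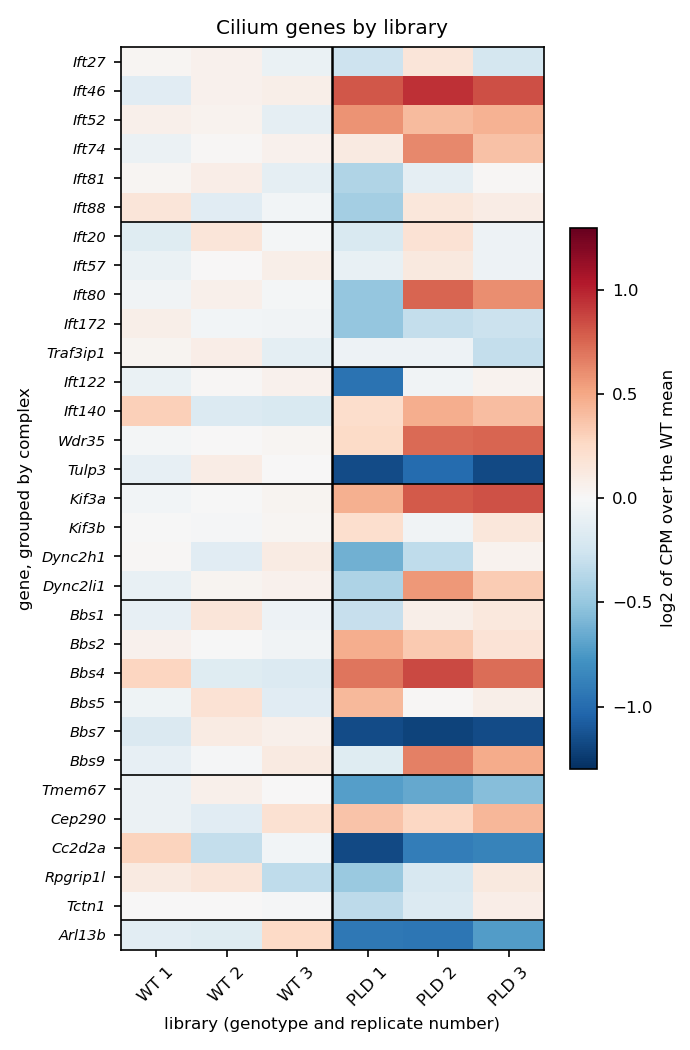
Log2 of the CPM over the WT mean (colour, red above and blue below) for each of the 31 cilium genes (rows, grouped by complex) in each library (columns). Bbs7, Tulp3 and Cc2d2a are blue in all 3 PLD libraries and Ift46, Bbs4 and Kif3a red in all 3, while Ift80, Ift122 and Dync2li1 are low in PLD replicate 1 only.

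Cilium genes are known targets of RFX transcription factors, which bind a motif called the X-box, so promoters were searched for its letters. RefSeq promoters (GRCm38.p6, from 250 bases before to 50 bases after the start) were at hand for 26 of the 31 genes. The sequence GTTGCC, the first arm of the X-box, was found on either strand in 14 of 26 cilium genes (53.8%) and in 14.1% of all genes with a promoter in the table. The share was 2 of 6 for the genes higher in PLD, 3 of 5 for the lower ones and 9 of 15 for those that did not pass. A 14-letter X-box form that fixes only GT at its start, AT in its middle and AAC at its end, and can overlap the shorter motif, was found in 0 of 26 and in 2.99% of all genes. At so low a share, 0 among 26 windows does not set these genes apart from the rest. Other forms of the X-box were not searched, so the 0 does not mean that the promoters lack one. A match is a description of these windows and not a measured site. The motif lay wholly before the RefSeq start in 7 genes, and 4 of these are shown because they cover a rise (Kif3a), falls (Arl13b and Bbs7) and a value near 0 (Ift57). In Ift57 the gene model used for counting starts earlier, at 49699233, so the motif lies inside that model. Each is read 5′ to 3′ on the gene's strand (minus for Arl13b and Bbs7, plus for Kif3a and Ift57), with GTTGCC in capitals.
Kif3a, chr11:53567251-53567296: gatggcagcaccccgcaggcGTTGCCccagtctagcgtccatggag
Arl13b, chr16:62847196-62847241: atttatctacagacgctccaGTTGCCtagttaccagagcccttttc
Bbs7, chr3:36613485-36613530: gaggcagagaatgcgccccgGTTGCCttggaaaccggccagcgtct
Ift57, chr16:49699214-49699259: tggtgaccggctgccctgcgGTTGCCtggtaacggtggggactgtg

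The RFX genes themselves went both ways. Rfx2 rose, with 37.5, 28.5 and 30.9 CPM in PLD and 13.7, 13.1 and 18.3 in WT (log2 fold change 1.10 ± 0.17 SE, edgeR adjusted p = 0.00140), and Rfx5, which acts on MHC class II genes, fell by 0.66. Rfx3, a regulator of ciliary genes, missed the threshold at -0.36 (edgeR adjusted p = 0.0736). Of 7 tested genes in the regulator list 2 rose and 2 fell, or 57.1% in all, near the 55.4% of all genes. The other calls, Myb (1.02) and Rfx7 (-0.28), were each lost in 9 alternatives, and Rfx7 turned to 0.09 with the length trend removed. Foxj1, the master gene of motile cilia, was at 13.2, 23.2 and 23.0 CPM in PLD and 17.6, 20.6 and 20.9 in WT, which overlap.

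IFT, motor, BBS and transition zone genes that are not among the 31 were mostly higher where they passed, but a smaller share passed than of all genes. These lists hold associated genes as well as subunits of the complexes. Of 42 tested, 13 rose and 1 fell (33.3% in all), against 27.0% and 28.4% (55.4% in all) of all genes. Of 15 other IFT and motor genes tested, 6 rose and 0 fell, with a median log2 fold change of 0.43. The dynein-2 intermediate chain gene Wdr34 rose from 10.3, 10.4 and 8.53 CPM in WT to 26.2, 26.8 and 25.3 in PLD (log2 fold change 1.42 ± 0.13 SE, edgeR adjusted p = 1.35e-04). The IFT-B genes Ttc26 (0.51) and Ift22 (0.49) and the IFT-A gene Ift43 (0.43) were called as well, each losing the call in 3 or 4 alternatives. Thus another subunit of dynein-2 passed as higher while its heavy chain gene did not pass.

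Of 9 genes in the list of other BBSome and BBS genes, which also holds the associated genes Rab3ip and Rab8a, 3 rose and 1 fell. Rab3ip, which encodes the exchange factor Rabin8 that switches on Rab8 for ciliary membrane growth, rose by a log2 fold change of 1.08 ± 0.10 SE (edgeR adjusted p = 1.34e-04) and Rab8a by 0.58. Bbip1 (0.52) and the chaperonin gene Mkks (-0.70) passed, and lost the call in 5 and 3 alternatives. Of 18 other transition zone genes 4 rose and 0 fell. Tmem216, of the same membrane module as Tmem67 and Cc2d2a, had 14.3, 14.9 and 13.9 CPM in PLD and 6.43, 6.49 and 7.04 in WT (log2 fold change 1.11 ± 0.14 SE, edgeR adjusted p = 5.12e-04). It went opposite to those members. B9d2 (0.52) and Tmem107 (0.64) were also called, with the call lost in 4 and 6 alternatives.

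Centriole and distal appendage genes, which form the base of the cilium, fell for 8 of 18 and rose for 1, with a median of -0.31. Over all genes tested, 28.4% fell and 27.0% rose. The fall was 0.95 for Cep135, 0.58 for Ttbk2, the kinase that starts cilium growth, 0.54 for Odf2 and 0.43 for Pcm1 on the log2 scale. Ttbk2 and Pcm1 lost the call with the length trend removed, and Pcm1 also without PLD replicate 2 or WT replicate 3. In the list of lipidated cargo and signalling genes 3 of 13 rose and 4 fell. Adcy3, the adenylyl cyclase used as a cilium marker, fell by 1.37 and the ciliary receptor gene Gpr161 by 1.17, and Pde6d (-0.66) and Adcy6 (-0.49) were lower too. The endothelial and fibroblast lists fell in the same libraries, and their part here was not tested.

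Genes tied to cilium disassembly rose for 5 of 10 and fell for 1, against 27.0% and 28.4% of all genes. Nedd9, which activates Aurora A at the cilium, rose by a log2 fold change of 1.13, Tchp by 0.69 and Ndel1 by 0.66 (lost without WT replicate 2), while Trip6 fell by 0.91. Of 9 tested proliferation genes 1 rose, Pcna (0.70), and 0 fell. Motile cilium genes were at low levels, 14 of 20 in the tables being tested with a summed level of 27.2 to 36.1 CPM in PLD and 31.8 to 39.8 in WT. Among them 7 fell and 1 rose, where 28.4% of all genes fell and 27.0% rose. The falls include Dnah5 (-3.04), Tekt2 (-2.04) and Cfap44 (-3.91), which rests on only 0.0600 to 0.244 CPM in PLD. Rsph9 rose (1.18), from 8.20 to 10.0 CPM in WT to 17.5 to 22.8 in PLD. It was most of the summed level in PLD, so the sums do not show the falls of the other genes. Tubulin modification genes rose for 2 of 11, Ttll6 (2.05) and the tubulin gene Tubb4b (1.00), and fell for 3, including Agtpbp1 (-0.77, lost with the length trend removed) and Ttll4 (-0.71).

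**Figure D5:**
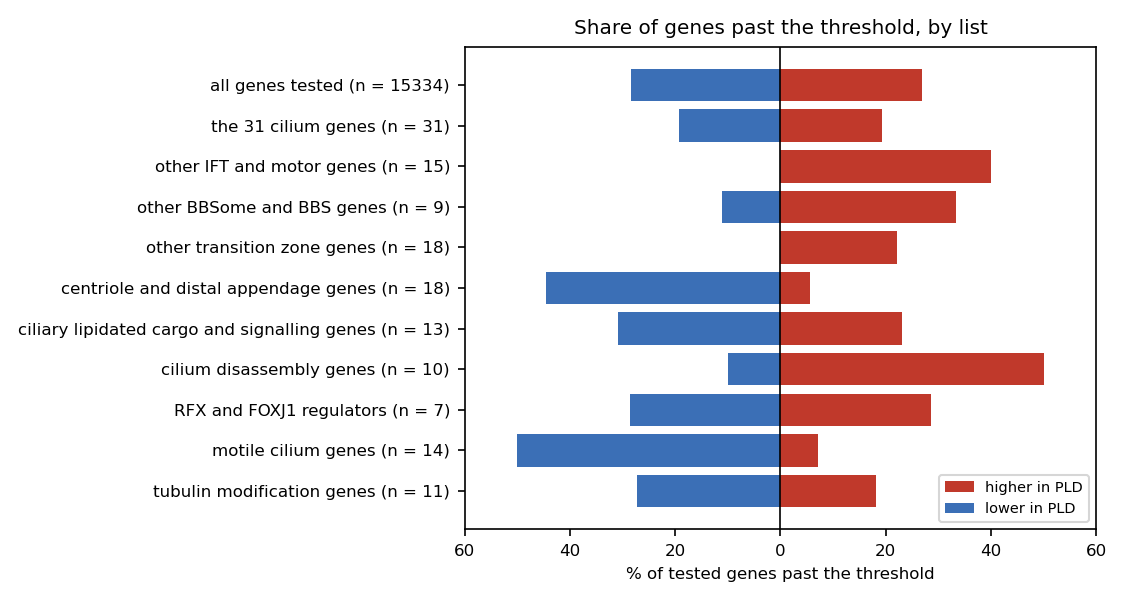
Share of tested genes that passed as higher (red, to the right) or lower (blue, to the left) in PLD, in % on the x axis, for all genes, the 31 cilium genes and 9 lists of other cilium genes. The other IFT and transition zone lists hold no gene that passed as lower. In the centriole and motile cilium lists, 8 of 9 and 7 of 8 genes that passed were lower.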

How the data were processed

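Each library has a table of raw counts that the authors deposited; per the file headers, featureCounts 1.6.0 assigned reads to GENCODE vM25 genes (mm10). The command sets no option for strand, paired ends or multi-mapping reads, so reads of a gene and an antisense partner cannot be told apart. Exons of 6 cilium genes overlap another gene, most in Tctn1 (18.98% of its exon length with Hvcn1), and default counting drops reads that fit both. The submitters' processing notes further list STAR 2.7.4a, SAMtools 1.12 and DESeq2 1.26.0 with no settings. Symbols matched 55141 of 55401 IDs.

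The whole table was fitted with edgeR 4.0.16 (R 4.3.3): filterByExpr kept 15334 genes, TMM factors (0.922 to 1.045) scaled the libraries, and PLD was set against WT by quasi-likelihood F test with no covariate. The SE is the log2 fold change divided by the square root of F, and 95% intervals use the fit's degrees of freedom. Replicates differed beyond sampling noise (chi-square of 9.72 to 63.9 per degree of freedom for genes having 50 or more reads in a pair). The fit was tested on simulated data with known changes. All 31 genes are named, with up to 4 genes of smallest p from each other cilium list and 2 from each cell type list, where printed. Foxj1, Rfx3, Krt19, Epcam, Cftr, Sctr, Muc16 and Alb were added after their values were seen. One gene that the rule names is not reported here. Members and lists were chosen with earlier results of these data known.

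Alternatives were DESeq2 1.42.0, limma-voom (limma 3.58.1), upper-quartile or RLE factors, all genes unfiltered, at least 1 CPM in 3 libraries, a replicate block, removal of a loess trend (span 0.5) on gene length centred in each library, and leaving out each library.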

Additional observations from a re-analysis of the deposited data

How the results depend on the processing

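Counts of cilium genes that passed stayed within 1.5 times those reported in all 14 alternatives: 5 to 9 higher and 5 to 7 lower. With the replicate block they were 5 and 6, as Bbs2 was lost (adjusted p over all genes). Deviations of same-numbered libraries correlated with r = 0.156, 0.0363 and 0.0613, and those of differently numbered ones with -0.123 to 0.122. Only the value for replicates 1 lay above that range. The numbers were not taken to pair the samples. Leaving out single libraries gave 3173 to 4183 higher and 3626 to 4562 lower genes over the whole table. The members' median log2 fold change ranged from -0.07 to 0.07. Sign changes came only in genes that had not passed, apart from Rfx7 (0.0946, length trend removed). With the length trend removed, Ift88 was 0.00465, Dync2h1 0.12, Dync2li1 -0.0178, Bbs1 0.15, Rpgrip1l 0.19 and Tctn1 0.0440. Without the filter, Ift20 was 0.00252, Ift57 0.0125 and Bbs1 0.00588, and with DESeq2 Ift57 was 0.00135. Leaving out single libraries, the sign also changed within the ranges -0.137 to 0.131 (Ift88), -0.122 to 0.0741 (Ift20), -0.0664 to 0.0424 (Ift57), -0.417 to 0.00966 (Ift122) and -0.0856 to 0.117 (Bbs1). The cause of these changes was not tested. With 3 libraries a group, 95% intervals for Ift80, Ift122 and Dync2li1 spanned more than 1 log2 unit.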
